A study of Mus musculus with 24 samples.

Results

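Genes of the melanocyte, the pigment cell of the skin, were measured in back skin of mice under timed feeding. The set held 8 genes of the 29758 gene symbols in the exon table: Tyr, Tyrp1 and Dct, the pigment enzymes; Pmel and Mlana, proteins of the pigment granule; and Mitf, Sox10 and Kit, the lineage genes. Members were taken by symbol from the exon rows, and of rows sharing a symbol the one with the highest total was kept, which for Sox10 decided between 2 gene models. All 8 members passed the filter on low counts. RNA sequencing libraries came from male wild type C57BL/6NCrl mice of about 8 weeks, with 12 h of light per day. Lights came on at ZT0, where ZT is the number of hours since lights on. The ED group had food from ZT0 to ZT4, the MD group from ZT5 to ZT9 and the EN group from ZT12 to ZT16, in each case for 18 to 21 days. A group had 8 libraries, each of a different time (every 4 h, ZT0 through ZT28), and ED24 stands for the ED library taken at ZT24. What all groups shared was regular chow, shaved skin at the resting stage (telogen) as checked by histology, and RNA pooled from 2 to 4 animals. The labels do not say whether pools came from separate animals. No group had replicate pools at a sampling time. The p-values of the fits therefore measure only the scatter of pools about the fitted model, which may be technical.

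Melanin is made from tyrosine in melanosomes. Tyrosinase (Tyr) starts the synthesis, and Dct and Tyrp1 act on later steps toward brown and black pigment. Pmel forms the fibrils on which melanin is laid down, and Mlana helps to bring Pmel to the maturing granule. Mitf is the transcription factor that drives the pigment genes, Sox10 acts upstream of Mitf, and Kit is the receptor through which melanocytes receive stem cell factor. In mouse back skin the melanocytes lie almost wholly in the hair follicles, as unpigmented stem cells at rest and as pigment producers in the bulb of a growing hair. Sox10 is also made by Schwann cells and glands, Kit by mast cells, and Mitf by many cell types.

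The promoter windows of the pigment enzymes are shown because the 3 genes share a stretch there and were all high in the same pools of skin. Any part of the stretch in those levels was not tested. The longest run of bases common to the windows of all 3 enzymes, within 250 bases before the transcript start that RefSeq's window uses and on the gene's strand, was GTCATGTGCT. This stretch of 10 bases overlaps the M-box, a slightly longer motif known to be bound by Mitf. It is given in capitals below, in windows of 30 bases read 5′ to 3′ on the strand of the gene, from RefSeq on GRCm38.p6.
Tyr (chr7:87493516-87493545, minus strand): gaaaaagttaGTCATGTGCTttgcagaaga
Tyrp1 (chr4:80834155-80834184, plus strand): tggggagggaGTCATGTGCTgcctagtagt
Dct (chr14:118052379-118052408, minus strand): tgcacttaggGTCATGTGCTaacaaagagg
The first base of the stretch lay at -23 in Tyr, at -48 in Tyrp1 and at -152 in Dct, counted from those transcript starts (87493512, 80834213 and 118052246). For Tyrp1 that start lies inside the outer bounds of the gene, which open at 80834123 with another transcript, so its stretch lies within those bounds. On either strand (reverse complement AGCACATGAC) the stretch was in 51 of 32851 such windows, or 0.155%. Its inner part CATGTG (reverse complement CACATG) was in 12.3% of windows. Mitf and Kit had a window without either, and Pmel, Mlana and Sox10 were not matched. The stretch of 10 bases was taken from the windows of the 3 enzymes, so its presence in all 3 was fixed in advance. Its share over all windows is therefore a description and no test. These matches are descriptions of letters and were not measured as binding.

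The members lie apart from each other in the genome, in the annotation of GRCm38, the sequence of mm10. Tyr spans chr7:87424771-87493512 on the minus strand, Tyrp1 chr4:80834123-80851719 on the plus strand and Dct chr14:118012790-118052244 on the minus strand. Pmel spans chr10:128704195-128720238 and Mlana chr19:29697824-29708634, both on the plus strand. Mitf spans chr6:97807052-98021349 on the plus strand, Sox10 chr15:79154908-79165240 on the minus strand and Kit chr5:75574916-75656722 on the plus strand. Pmel overlaps Cdk2 and Dgka on the opposite strand, and the kit kept strand. Levels below are CPM (exon counts scaled to the library total) after TMM scaling unless another unit is named. Total exon counts ran from 13091637 to 26052550 per library (median 17477441), so that 1 CPM stood for 13 to 26 reads, and counting error weighs most on Mlana, with 12 to 58 reads per library.

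The ED24 and EN00 pools stood apart from the other 22 in genes of the growing hair, although the skin was labelled telogen. The summed level of 20 hair shaft and inner root sheath genes was 1116 CPM in ED24 and 3409 CPM in EN00, against 27.6 to 93.0 CPM in the others. Among the 4 most abundant, Krt71, a keratin of the inner root sheath, was at 305 CPM in ED24 and 682 CPM in EN00, against at most 11.5 elsewhere. Trichohyalin (Tchh) was at 293 and 1251 CPM against 13.5 to 44.95, Krt25 at 170 and 287 CPM against 0 to 6.32, and Krt27 at 98.7 and 335 CPM against 0 to 4.25. Epidermal markers were abundant in every pool (6218 to 8940 CPM summed over 6 genes). The description lines also carry a code from L1 to L8, each on 3 libraries, whose meaning is not given. It is nearly nested in the feeding groups, so that code and group cannot be told apart for most comparisons, and ED24 and EN00 carry different codes. The main values that rest on ED24 and EN00 are given with and without them. Since both were singled out by their content, their own levels are described and not tested.

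The Tyr exon row was nearly duplicated by another row of the table. A gene model, D84001, had nearly the same exon count in 22 libraries, at 85.5% to 101% of the Tyr count (median 94.97%). Both rows also differed by only -1 to 2 antisense reads in those libraries, where Tyr had 131 to 296. D84001 was not matched in the annotation used here, and how reads that fit both models were counted is not given. The near-equality was noticed after the values were seen, and the Tyr level is therefore uncertain. The Tyr exon count beyond the D84001 count was -1 to 16 reads in the 22 libraries (median 6.50), 83 reads in ED24 and 42 reads in EN00. As a level this is 6.31 CPM in ED24 and 2.86 CPM in EN00, against -0.049 to 0.98 CPM elsewhere (median 0.33 CPM). D84001 itself was at 7.30 CPM in ED24 and 8.52 CPM in EN00, within its range of 5.11 to 8.57 CPM in the others. The Tyr row is kept below as deposited.

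**Figure D1:**
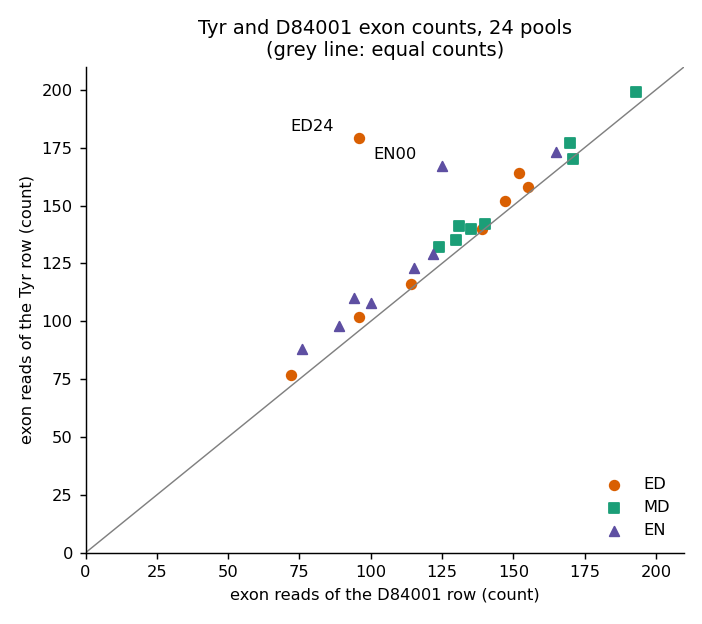
Exon read counts of the Tyr row (vertical axis) against those of the D84001 row (horizontal axis), 1 point per pool, coloured by feeding group, with a line of equal counts. In 22 pools the points lie within 16 reads of the line, while ED24 lies 83 and EN00 42 reads above it.

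Outside ED24 and EN00, lineage genes and Dct led the order of the members. On the RPKM scale, which is per length of the gene model, Mitf had the highest level (median 13.6 RPKM, 11.3 to 17.5 over 22 pools). It exceeded Sox10 in 22 of 22 pools. Sox10 followed at 4.58 RPKM (3.42 to 6.47), Dct at 4.09 RPKM (1.78 to 5.51) and Kit at 3.85 RPKM (2.24 to 4.50). These 3 exchanged places, with Sox10 above Dct in 16 and Dct above Kit in 15 of 22 pools. Tyr was at 2.93 RPKM (2.38 to 3.63), a value uncertain through D84001, and as deposited was above Tyrp1 in every one of the 22. Counting only the reads beyond D84001, Tyr was at -0.049 to 0.98 CPM, below the 2.39 to 6.31 CPM of Tyrp1. The place of Tyr in the order therefore depends on how those reads are counted. Tyrp1 at 1.67 RPKM (1.01 to 2.72), Pmel at 1.27 RPKM (0.45 to 2.31) and Mlana at 0.76 RPKM (0.42 to 1.58) closed the order. Tyrp1 exceeded Pmel in 14 and Pmel exceeded Mlana in 19 of the 22, so these neighbours overlapped. In bulk tissue, fewer cells of a type and less RNA per cell cannot be told apart, here and in all values below.

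**Figure D2:**
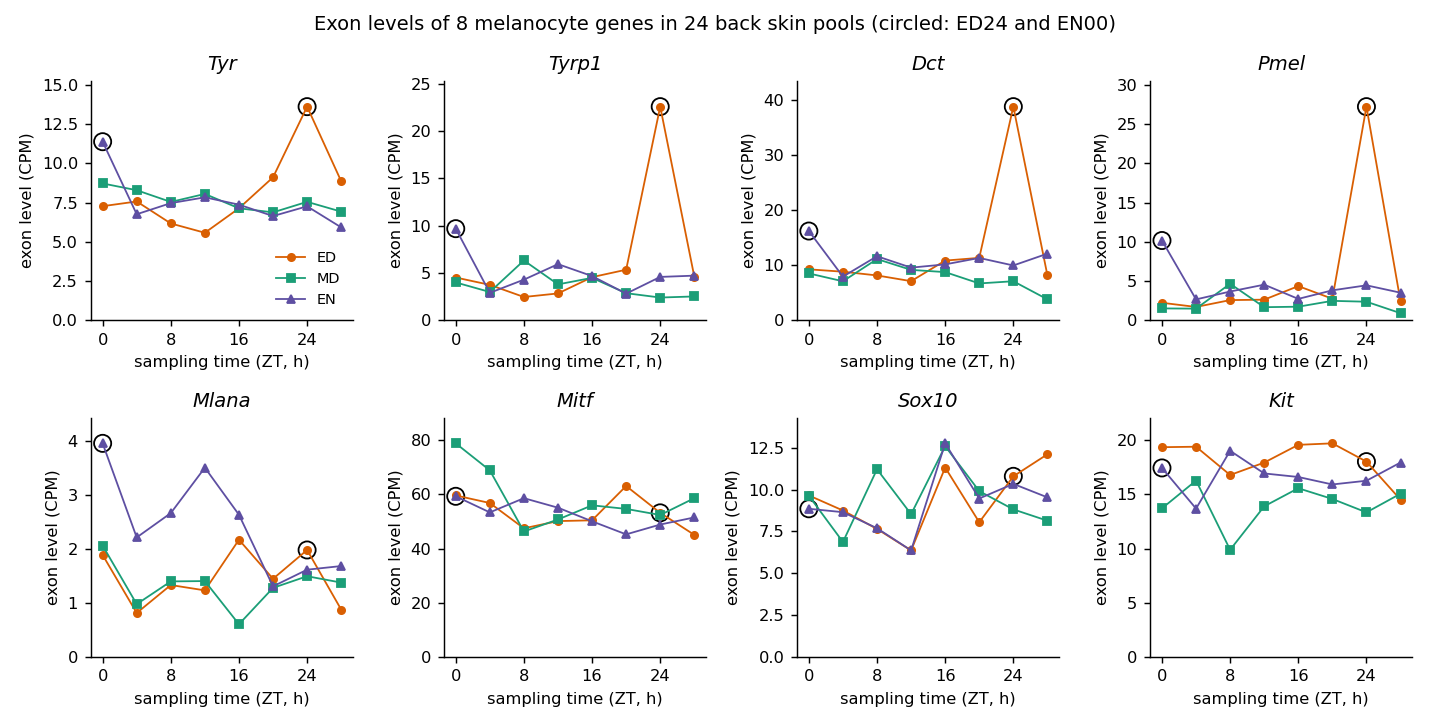
Exon level in CPM (vertical axes, from 0) by sampling time (horizontal axes, ZT in hours) for the 8 members, 1 line per feeding group and 1 pool per point, with ED24 and EN00 circled. Pmel reaches 27.2 CPM in ED24 and at most 4.63 CPM outside the circled pools, while Mitf stays between 45.05 and 78.9 CPM.

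The pigment enzymes were higher in ED24 and EN00 than in any other pool, and the lineage genes were not. Tyrp1 was at 22.6 CPM in ED24 and 9.68 CPM in EN00, against 2.39 to 6.31 CPM in the other 22 pools (median 4.13). Dct was at 38.9 CPM in ED24 and 16.2 CPM in EN00, against 3.78 to 12.1 CPM (median 8.98). Tyr was at 13.6 CPM in ED24 and 11.4 CPM in EN00, against 5.57 to 9.11 CPM (median 7.32). For each enzyme ED24 was the highest and EN00 the next highest of 24 pools. Against the median of the other 7 ED pools, the level in ED24 was 5.01 times as high for Tyrp1, 4.41 times for Dct and 1.87 times for Tyr. Against the other 7 EN pools, the level in EN00 was 2.12, 1.60 and 1.57 times as high, in the same order. Counting only the reads beyond D84001, Tyr was at 6.31 and 2.86 CPM in these pools, as given above.

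Pmel, the fibril protein, had the largest fold of the members on the exon rows as deposited. It was at 27.2 CPM in ED24, where 358 exon reads were counted, and at 10.2 CPM in EN00, against 0.88 to 4.63 CPM elsewhere (median 2.58). These levels were 10.7 times the median of the other ED pools and 2.79 times that of the other EN pools. Mlana did not follow it in ED24, where its 1.98 CPM lay among the other ED pools (0.81 to 2.17 CPM). In EN00 Mlana was at 3.95 CPM, the highest of 24 pools, with EN12 next at 3.50 CPM. The Tyr reads beyond D84001 had a larger fold than Pmel in both pools, though on few reads. They were at 6.31 CPM in ED24 and 2.86 CPM in EN00, against a median of 0.33 CPM in the other 22.

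Mitf, Sox10 and Kit stayed within the range of the 22 other pools in both. Mitf was at 53.2 CPM in ED24 and 59.3 CPM in EN00, against 45.05 to 78.9 CPM. Sox10 was at 10.8 and 8.86 CPM against 6.37 to 12.8 CPM, and Kit at 18.0 and 17.4 CPM against 9.88 to 19.7 CPM. Their folds over the median of their own group ran from 0.93 (Kit in ED24) to 1.23 (Sox10 in ED24). In all, 3 of 8 members in ED24 (Tyrp1, Dct and Pmel) were more than 2-fold above the median of the other ED pools, where 2.35% of all genes were. In EN00 this held for 2 of 8 members (Tyrp1 and Pmel), where 1.68% of all genes were more than 2-fold higher. No member was more than 2-fold lower in ED24 or EN00, where 1.65% and 1.08% of all genes were.

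The same contrast can be given as ratios within each pool. The summed level of Tyr, Tyrp1, Dct and Pmel was 102 CPM in ED24 and 47.4 CPM in EN00, against 14.1 to 29.6 CPM in the others. The ratio of this sum to Mitf was 1.92 in ED24 and 0.80 in EN00, against 0.24 to 0.64 (median 0.43). The ratio to Sox10 was 9.47 and 5.35 against 1.73 to 4.37 (median 2.50). Mitf and Sox10 are also made by other cells, so these ratios are not levels per melanocyte. The sum also holds the Tyr row as deposited, with the reads that D84001 nearly duplicates. ED24 had the higher pigment sum of the 2 pools and EN00 the higher hair sum, so the order of the pools differed between pigment and hair shaft RNA.

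**Figure D3:**
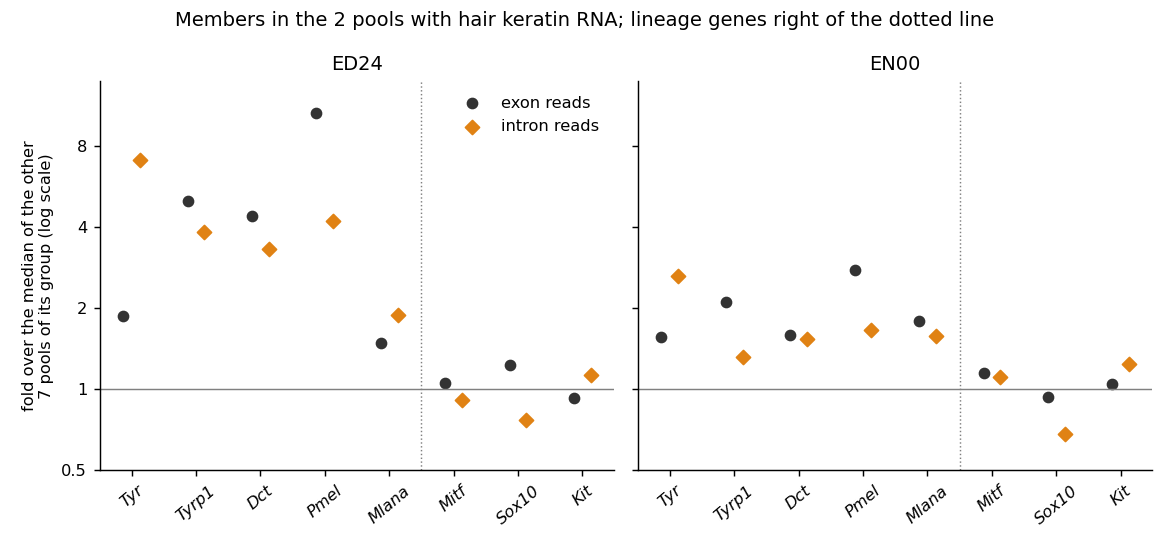
Fold of the level in ED24 (left) and EN00 (right) over the median of the other 7 pools of the same feeding group, on a log scale, for exon reads (circles) and intron reads (diamonds) of each member, Pmel intron reads being below the filter. Enzymes and Pmel lie above 1 in both pools, with exon folds up to 10.7, and the exon folds of the lineage genes lie between 0.93 and 1.23.

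Intron reads, which come mostly from RNA not yet spliced, also placed ED24 and EN00 highest for Tyr and Dct, and ED24 for Tyrp1. The Tyr intron row was at 14.1 CPM in ED24 and 7.68 CPM in EN00, against 1.40 to 4.51 CPM in the others. Its fold over its own group was 7.09 in ED24 and 2.65 in EN00, larger than on exon reads. Dct intron reads were at 33.7 and 17.0 CPM against 6.53 to 16.2 CPM. Tyrp1 intron reads were at 4.60 CPM in ED24, above the others (0.60 to 3.88 CPM), and at 2.45 CPM in EN00, within them. Pmel intron reads, 19 in ED24 and 18 in EN00 against 2 to 14 elsewhere, did not pass the filter. Sox10 intron reads were at 3.96 and 3.73 CPM, ranks 22 and 23 of 24 pools. Kit intron reads were at 33.4 CPM in ED24 and at 36.0 CPM in EN00, the latter the highest of 24 pools, with 22.2 to 35.7 CPM in the other 22. Mitf intron reads were at 943 CPM in ED24 and 1182 CPM in EN00, within 867 to 1375 CPM. More than 2-fold above the own group were 3 of 7 tested intron rows in ED24 (Tyr, Tyrp1 and Dct) and 1 of 7 in EN00 (Tyr), where 1.74% and 1.65% of all intron rows were.

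Other genes of the melanocyte were split in these pools. Of 23 listed genes of melanosome transport and ion channels, 18 passed the filter, and 1 (Trpm1) was over 2-fold higher in ED24 and 2 (Trpm1 and Slc7a11) in EN00. Trpm1, a channel found in melanocytes, was at 7.07 CPM in ED24 and 4.02 CPM in EN00, against 0.69 to 2.22 CPM elsewhere. Slc7a11, the cystine carrier that feeds yellow pigment, was at 4.63 CPM in EN00 and 1.14 CPM in ED24, against 0.98 to 3.83 CPM. Slc45a2, Slc24a5 and Oca2, melanosome transporters that did not pass the filter, were at 1.90, 3.20 and 2.43 CPM in ED24 and at 0.75, 0.89 and 0.55 CPM in EN00. In the other 22 pools their highest levels were 0.27, 0.61 and 0.17 CPM. Gpr143 and Tspan10, also below the filter, were at 0.38 and 0.68 CPM in ED24 and at 0.61 and 0.48 CPM in EN00. Their highest levels elsewhere were 0.20 and 0.35 CPM. Genes below the filter are not part of the counts over 2-fold. Rab27a, Mlph and Myo5a, which carry melanosomes to the cell edge, were 0.84 to 1.37 times the median of their own group in both. Rab27a and Myo5a had medians of 26.8 and 132 CPM in the other 22 pools. Lyst, Atp7a and Ap3b1, also on this list and not over 2-fold higher in either pool, had medians of 151, 88.5 and 74.8 CPM there. For none of the listed genes was the part made by melanocytes measured, so the counts over 2-fold do not describe melanocytes alone. These pool values, like the others named in this paragraph and the next, were picked after they were seen.

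Of 8 tested ligands and receptors, 1 was over 2-fold higher in each of ED24 and EN00 (Mc1r) and 1 over 2-fold lower in EN00 (Hgf, at 1.91 CPM against a median of 3.83 CPM in the other EN pools). Mc1r, the melanocortin receptor, was at 1.90 CPM in ED24 and 1.36 CPM in EN00, against 0.22 to 1.41 CPM. Ednrb, the endothelin receptor of melanoblasts, was at 48.8 and 42.0 CPM against 15.6 to 38.1 CPM. Of 10 tested transcription factors, 2 were over 2-fold higher in ED24 (Lef1 and Sox5) and 1 in EN00 (Lef1). Lef1 was at 7.68 CPM in ED24 and 9.40 CPM in EN00, against 2.21 to 4.52 CPM, and Sox5 at 9.28 CPM in ED24 and 4.43 CPM in EN00, against 3.11 to 5.44 CPM. Lef1 is also made by the hair matrix. Pax3 was at 2.21 and 2.59 CPM, within 1.28 to 4.52 CPM. No gene of the mast cell list (12 tested) or of the Schwann cell and nerve list (15 tested) was over 2-fold higher or lower in either pool. The hair shaft list had 8 of 9 tested genes over 2-fold higher in ED24 and 9 of 9 in EN00, and the part of hair shaft RNA in the pigment values was not tested.

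**Figure D4:**
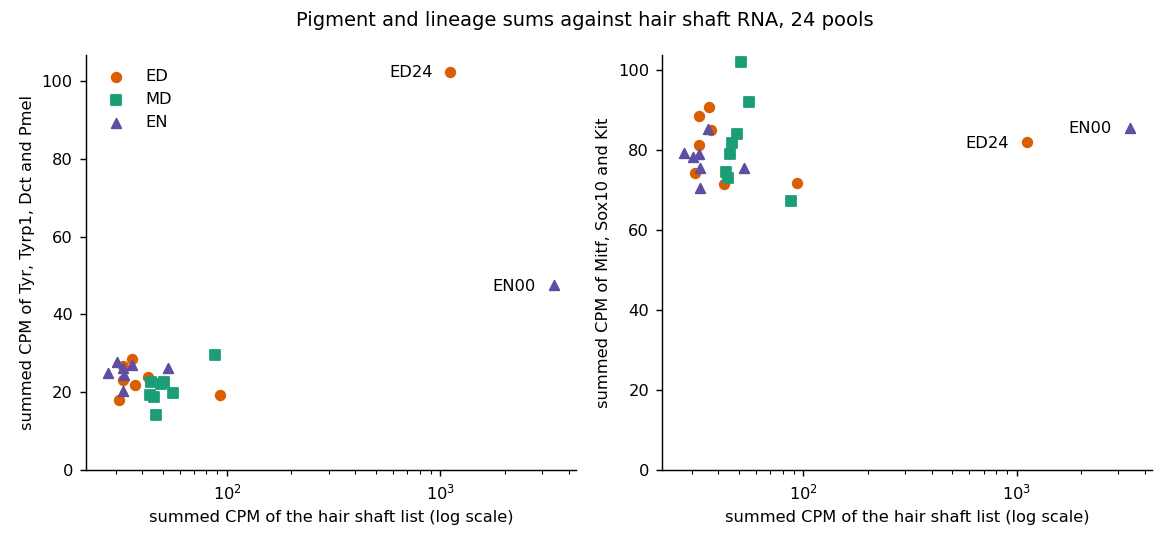
Summed level of Tyr, Tyrp1, Dct and Pmel (left) and of Mitf, Sox10 and Kit (right), in CPM from 0, against the summed level of the hair shaft list on a log scale, 1 point per pool. ED24 and EN00 stand to the right in both panels, at 102 and 47.4 CPM on the left and among the other pools on the right.

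Feeding groups were next compared in their mean level over the day, with all 24 libraries in 1 model (edgeR quasi-likelihood test, Benjamini-Hochberg adjustment over 15719 genes). In MD against ED 1 of 8 members passed, where 11.2% of all genes were higher and 11.8% lower, so this count is near or below the background. That member, Kit, fell in MD by 0.39 ± 0.095 on the log2 scale (SE, adjusted p = 0.00509). Kit was at 14.5, 18.7 and 19.7 CPM in ED (lowest, median, highest of 8), at 9.88, 14.2 and 16.3 CPM in MD and at 13.7, 16.8 and 19.03 CPM in EN. All 8 MD pools lay below the ED median and 4 of 8 below every ED pool, although the groups overlapped. Without ED24 and EN00 the difference was -0.39 ± 0.10 (adjusted p = 0.00892), where 19.5% of genes changed. On intron reads it was -0.18 ± 0.11 (adjusted p = 0.284) and no member passed, where 15.5% of intron rows did. Of the pools that share code L3, Kit was at 19.4 CPM in ED00, 13.3 CPM in MD24 and 15.1 CPM in MD28.

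Mast cells, which also make Kit, had markers that moved with it. Of 12 mast cell genes tested, 6 fell in MD against ED and 0 rose (11.8% and 11.2% over all genes), with a median of -0.26 on the log2 scale, against -0.0057 over all genes. Cpa3, the mast cell carboxypeptidase, fell by 0.79 ± 0.15 (adjusted p = 0.000254), Mcpt4, a chymase, by 0.78 ± 0.15 (adjusted p = 0.000416), and Cma1, another, by 0.74 ± 0.17 (adjusted p = 0.0012). Mrgprb1, Ms4a2 and Hpgds were the others. Summed over 13 genes, the mast cell level was 149 to 290 CPM in ED, 134 to 205 CPM in MD and 192 to 272 CPM in EN. No listed mast cell gene except Fcer1a was at 0 in any library. Dermal fibroblast genes fell in MD in 4 of 6 cases and adipocyte genes in 5 of 6, while skeletal muscle genes rose in 5 of 6, beside the same shares over all genes. The part of any of these in the Kit difference was not tested.

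In EN against MD, 2 of 8 members rose, Mlana and Kit, where 15.9% of all genes were higher and 30.2% changed. Mlana was at 0.81, 1.39 and 2.17 CPM in ED (lowest, median, highest), at 0.60, 1.39 and 2.06 CPM in MD and at 1.30, 2.42 and 3.95 CPM in EN. Of the EN pools 5 of 8 lay above every MD pool. The difference was 0.92 ± 0.26 on the log2 scale (adjusted p = 0.0066), and without ED24 and EN00 it was 0.79 ± 0.21 (adjusted p = 0.00938), where 29.6% of genes changed. It was lost in limma on the deposited RPKM, at 0.36 ± 0.23 on the log2(RPKM + 0.1) scale (adjusted p = 0.223). Intron reads gave 0.36 ± 0.41 (adjusted p = 0.588), where 14.7% of intron rows changed.

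Kit differed by 0.27 ± 0.095 between EN and MD (adjusted p = 0.0351), with 7 of 8 EN pools above the MD median. Leaving out both ED24 and EN00 ended this call (0.25 ± 0.10, adjusted p = 0.0620), as did intron reads (0.16 ± 0.11, adjusted p = 0.319). Leaving out MD08, the lowest pool for Kit, gave 0.19 ± 0.077 (adjusted p = 0.0993). Of the mast cell genes 5 of 12 rose in EN against MD and 0 fell (15.9% and 14.4% over all genes), among them Mcpt4 (0.65 ± 0.15, adjusted p = 0.00117).

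For Pmel the call between EN and MD depended on the pools used. It was at 2.64, 3.72 and 10.2 CPM in EN and at 0.88, 1.68 and 4.63 CPM in MD, and 8 of 8 EN pools lay above the MD median. With all pools the difference was 0.97 ± 0.51 (adjusted p = 0.151). Without ED24 and EN00 the size was 0.84 ± 0.28 and it passed (adjusted p = 0.0287). Dct, at 7.92, 10.7 and 16.2 CPM in EN and 3.78, 7.79 and 11.1 CPM in MD (4 of 8 EN pools above every MD pool), differed by 0.45 ± 0.28 (adjusted p = 0.202), and by 0.39 ± 0.18 without both pools (adjusted p = 0.0649). Tyrp1 differed by 0.32 ± 0.34 and Tyr by -0.025 ± 0.14. The Tyr reads beyond D84001 had a median of 0.61 CPM in EN, 0.27 CPM in MD and 0.33 CPM in ED, with no test made. Mitf (-0.095 ± 0.090) and Sox10 (-0.094 ± 0.15) did not pass.

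Between EN and ED, 0 of 8 members and 0.0% of genes passed in edgeR. At an unadjusted p under 0.05 there were 961 genes (6.11%), 1 of them a member (Mlana, 0.69 ± 0.26), and DESeq2 called 6 genes and no member. The other pair of comparisons share the MD libraries. In MD against ED, the members other than Kit ran from -0.76 ± 0.51 (Pmel) to 0.11 ± 0.15 (Sox10).

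**Figure D5:**
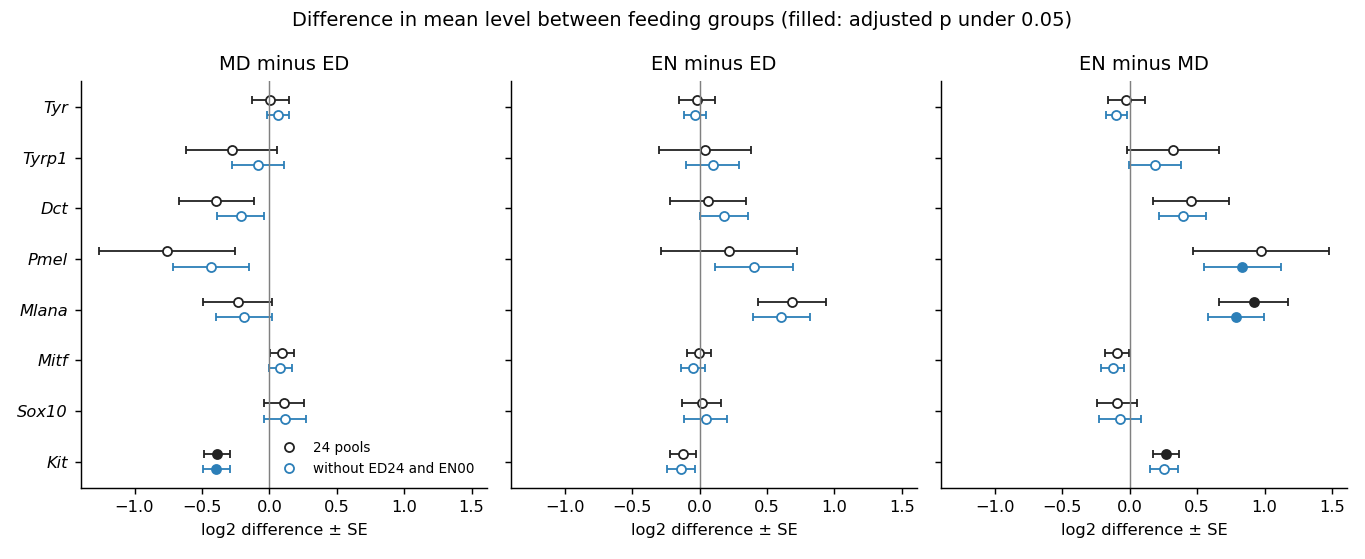
Difference in mean level (log2, horizontal axes) with its SE for each member in the 3 pairs of feeding groups, with all 24 pools (black) and without ED24 and EN00 (blue), filled where the adjusted p was under 0.05. Kit lies at -0.39 in MD against ED in both fits, and the bars of Pmel narrow when both pools are left out.

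Other genes of the pathway were read from the same tests. Of the 18 tested genes of melanosome transport, 1 rose and 1 fell in MD against ED, and 1 rose and 2 fell in EN against MD. Over all genes, 11.2% rose and 11.8% fell in MD against ED, and 15.9% rose and 14.4% fell in EN against MD, so these counts are near or below the background. Mlph, the linker of melanosomes to the myosin motor, was 0.57 ± 0.084 higher in MD than in ED (adjusted p = 0.000429) and 0.77 ± 0.084 lower in EN than in MD, that is -0.77 (adjusted p = 2.85e-05). Mlph is also made by other epithelial cells. Rab32, which sorts enzymes to melanosomes, went the other way (-0.30 ± 0.093 in MD against ED, adjusted p = 0.0183, and 0.32 ± 0.093 in EN against MD, adjusted p = 0.0103). Tpcn2, an ion channel of melanosomes, fell in EN against MD by 0.26 ± 0.077 (adjusted p = 0.0213).

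Of 8 tested ligands and receptors, 1 rose and 1 fell in MD against ED, where 11.2% and 11.8% of all genes did. In EN against MD also 1 rose and 1 fell, where 15.9% and 14.4% of all genes did, so both counts are near the background. Hgf, a growth factor for melanocytes and other cells, fell in MD against ED by 0.55 ± 0.16 (adjusted p = 0.0154) and rose in EN against MD (0.55 ± 0.16, adjusted p = 0.0104). Edn1, an endothelin, rose in MD (0.47 ± 0.19, adjusted p = 0.0235) and fell in EN against MD by 0.41 ± 0.19 (adjusted p = 0.0341). Kitl, the ligand of Kit, did not pass in any comparison. None of 10 tested transcription factors passed in any mean comparison. Of 15 Schwann cell and nerve genes, which share Sox10, 6 rose and 1 fell in MD against ED (11.2% and 11.8% over all genes), led by L1cam (0.34 ± 0.054, adjusted p = 0.00044), while Sox10 itself was at 0.11 ± 0.15.

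No daily rhythm passed for any member. In ED, 0 of 8 were called, where 0.719% of genes were; in MD 0 of 8 (0.942%) and in EN 0 of 8 (1.06%). At an unadjusted p under 0.05, 4 members in ED stood beside 2339 genes (14.9%), and no member in MD or EN. DESeq2 called no member in any group, with 388, 494 and 348 genes called. The 4 in ED were Tyrp1, Dct, Tyr and Pmel, with fitted peaks from ZT21.0 (Pmel) to ZT23.05 (Tyr), against ZT0 for the clock time of ED24.

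The amplitudes of these genes in ED were smaller without the pools that stood apart, where none was under an unadjusted p of 0.05. Tyrp1 had an amplitude of 0.93 ± 0.34 (log2, mean to peak, adjusted p = 0.147) with all pools and 0.51 ± 0.21 without ED24 and EN00. For Dct the values were 0.64 ± 0.28 and 0.27 ± 0.19, for Pmel 0.70 ± 0.51 and 0.41 ± 0.27, and for Tyr 0.41 ± 0.13 and 0.28 ± 0.087. The ED00 pool, at the same clock time a day earlier, had Pmel at 2.21 CPM against a group median of 2.58 CPM. Lineage genes had amplitudes of 0.059 (Kit in EN) to 0.25 (Sox10 in EN), against a median of 0.13 to 0.15 over all genes.

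Rhythms were not shown to differ between feeding groups for any member. Between MD and ED 0 of 8 passed, where 0.35% of genes did, between EN and ED 0 of 8 (0.401%), and between EN and MD 0 of 8 (0.35%). At an unadjusted p under 0.05 these held 1839, 1828 and 1999 genes (11.7%, 11.6% and 12.7%), with 2 members (Tyrp1 and Dct) in the first. Without ED24 and EN00, the unadjusted edgeR p for MD against ED was 0.0121 for Tyrp1 and 0.138 for Dct. In that fit Mitf and Mlana were under 0.05 in both other comparisons and Tyrp1 in EN against ED, and no member passed after adjustment. DESeq2 called 210, 272 and 243 genes and no member.

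Time since the meal was compared with feeding group and clock time in the model, setting 7 libraries from 3 to 8 h after the start of feeding against 9 from 19 to 24 h after it. In edgeR 0 of 8 members passed, where 4.85% of genes did. At an unadjusted p under 0.05, 3 of 8 members stood beside 3458 genes (22%). Mitf was -0.29 ± 0.093 after food (log2, adjusted p = 0.0595). It passed in DESeq2, which called 1126 genes (-0.29 ± 0.093, adjusted p = 0.0351), and without ED24 and EN00 (-0.32 ± 0.089, adjusted p = 0.0362), where 4.73% of genes did. Sox10 was 0.33 ± 0.10 (adjusted p = 0.0785) and Kit -0.24 ± 0.092 (adjusted p = 0.133). Pigment enzymes lay between -0.11 ± 0.43 (Tyrp1) and 0.067 ± 0.33 (Dct), and Pmel at 0.016 ± 0.51.

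Pairs of members were compared across the 22 other pools. Over 28 pairs of members, Pearson's r on log2 CPM passed for 2 pairs (permutation test with 100000 resamples, two-sided, adjusted over the pairs). Pools were permuted across feeding groups and times, so these p-values do not allow for levels that differ between groups. Dct and Pmel had r = 0.73 (p = 0.00017, adjusted p = 0.00322) and rho = 0.68 (p = 0.00051, adjusted p = 0.0118). Tyrp1 and Dct had r = 0.66 (p = 0.00023, adjusted p = 0.00322) and rho = 0.68 (p = 0.00084, adjusted p = 0.0118). Without the 2 pools farthest from the median of the first gene, r was 0.58 and 0.67. Within ED, MD and EN, r was 0.43, 0.70 and 0.34 for Dct and Pmel, and 0.75, 0.79 and 0.21 for Tyrp1 and Dct, over 7 or 8 pools each. Tyrp1 and Pmel had r = 0.48 (permutation p = 0.0252, adjusted p = 0.176). Mitf had r of -0.0062 with Tyrp1, -0.21 with Dct and -0.53 with Pmel (permutation p = 0.0117, adjusted p = 0.110 for the last). Sox10 and Kit had r from 0.062 to 0.35 with Tyrp1, Dct and Pmel, and none passed. With ED24 and EN00 added, 6 pairs passed, among them Tyr and Pmel, whose r went from -0.19 to 0.57.

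Genes most like each member over the 22 pools were ranked by Spearman's rho among 14719 genes with a mean of at least 1 CPM, as a description. Tyr was most like D84001 (rho = 0.97), the near-duplicate row, and Thap2 was next at 0.78. The best placed other member for Tyr was Tyrp1 at rank 1419. For Tyrp1 the closest were Pcbp2 (0.73), 2400003C14Rik (0.71) and Tra2a (0.71), and Dct stood at rank 11 for it. For Dct they were H2afv (0.78), Sparc (0.77) and Stmn1 (0.76), with Pmel at rank 32 and Tyrp1 at rank 39. For Pmel they were the histone genes Hist1h4b (0.91), Hist2h2ac (0.88) and Hist2h4 (0.86), with Dct only at rank 220 and Tyrp1 at rank 1183. Mlana was closest to Flot2 (0.77), Ttc8 (0.67) and Enpp5 (0.67), with Pmel at rank 322.

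The lineage genes had other neighbours. Mitf was closest to Rab11fip2 (rho = 0.92), Kdm3a (0.91) and Cdc14b (0.88). Sox10 was closest to Rarg (0.84), Ephb3 (0.80) and Sox9 (0.78). Kit was closest to Lhx8 (0.84), Klhl2 (0.83) and Cytip (0.83). The best placed other members were Tyr for Mitf (rank 2843), Tyrp1 for Sox10 (rank 1631) and Dct for Kit (rank 1545).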

How the data were processed

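The deposited read counts per gene model, in separate exon, intron and antisense rows of 31872 models, are whole numbers not normalized by the authors, per the file headers. The deposited RPKM values were made by the authors with cqn, per the file name. The submitters' processing notes list mm10, TopHat2, SAMtools and HOMER with no version. Rows sharing a symbol were reduced to the highest total (2114 rows left out). edgeR 4.0.16 in R 4.3.3 used TMM, filterByExpr (15719 genes) and a prior count of 2 for log2 CPM. A model with a mean, cosine and sine term (24 h) per group left 15 residual degrees of freedom, and the model of time since food 14. Differences, amplitudes and SEs are least squares on log2 CPM, and p-values are edgeR's quasi-likelihood test, adjusted by Benjamini-Hochberg over all genes tested, threshold 0.05. Alternatives were DESeq2 1.42.0, other size factors, no filter, limma 3.58.1 on log2 RPKM, fewer pools and intron rows. Scripts were tested on simulated data. Intron and antisense CPM use totals of intron rows and the exon scale. Members, lists and tests were chosen with earlier results of these data known. Named were all members, listed genes past the threshold in any of 10 tests (at most 12 per list), the 4 most abundant hair, mast and Schwann cell genes, and 3 genes most like each member.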

Additional observations from a re-analysis of the deposited data

Results flagged for a closer look

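In 6 of 24 sets of 8 pools (8 members in 3 groups), the highest or lowest pool stood apart from the rest by more than Dixon's 95% limit, given as the gap to its neighbour over the whole range of log2 CPM. Chance marks about 1 in 20 sets of pools not singled out beforehand. ED24 and EN00 were singled out by their hair keratins, so for them the limit describes the gap and is no test. ED24 was the pool that stood high in ED for Dct (0.726 of the range), Pmel (0.666) and Tyrp1 (0.654). EN00 stood high in EN for Pmel (0.604) and Tyr (0.572). MD08 stood low in MD for Kit (0.601), at 9.88 CPM.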

How the results depend on the processing

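Of the differences and the 2 correlated pairs followed through the alternatives, none reversed. Among the other pairs of members, Tyr and Pmel went from r = -0.19 in 22 libraries to 0.57 in 24. This change comes with ED24 and EN00, singled out by their content, and is no test of a relation. Members called for a rhythm, a different rhythm or a mean difference of EN against ED stayed at 0 in every alternative. In MD against ED, Kit alone passed in each of them except intron rows (0 members, a setting chosen after seeing the data). Leaving out 1 library at a time, its difference lay between -0.43 and -0.31, with 1 member called each time. In EN against MD, 2 members became 1 under limma on RPKM with a pseudocount of 0.1 or 1 (1 member each) and 0 on intron rows. Leaving out 1 library gave 1 to 4 members: Kit was lost without MD00, MD08, MD20, MD24, EN00, EN08, EN12, EN16, EN20 or EN28 (adjusted p 0.0141 to 0.0993 over all 24), and without ED24 the call was also made for Dct (adjusted p = 0.0388) and Pmel (0.0186). Pmel also passed on the first day only (0.96 ± 0.38, adjusted p = 0.0353), where Kit did not (0.107). After food against before food, DESeq2, limma on RPKM with either pseudocount and leaving out both ED24 and EN00 each gave 1 member (Mitf), and leaving out 1 library 0 to 1: Mitf passed without MD00, MD24, ED04, ED24 or EN00, and Sox10 without ED08 (0.37, adjusted p = 0.0400). Correlated pairs rose from 2 to 6 with all 24 libraries, that is with ED24 and EN00 added, and the added pairs are not read as relations. With sampling time as a replicate block, 1 member was called in EN against MD, since Kit was lost (0.27 ± 0.11, adjusted p = 0.0501), and the block changed no other call. Libraries of the same sampling time shared the clock time and light phase. Their deviations from the group means correlated from -0.15 to 0.24, which does not show what else they shared. Over alternatives, genes called for a rhythm ranged from 24 to 388 in ED, 19 to 494 in MD and 64 to 348 in EN, and for a mean difference from 2258 to 3874 in MD against ED and 2145 to 4953 in EN against MD. For a different rhythm they ranged from 16 to 210, 20 to 272 and 22 to 243 (MD against ED, EN against ED, EN against MD), and after food from 745 to 1241. Few reads limit Mlana, Pmel and the Tyr reads beyond D84001.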
